A study of Mus musculus with 32 samples.

Results

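The addition of Bmi1 to MYC was examined in neurosphere cultures from mouse brain tumours, by setting the 3 arrays labelled MYC+Bmi1 against the 6 arrays labelled MYC. These 9 arrays are part of a series of 32. The arrays were chosen by their titles alone, and every gene symbol was read through a single probe set, chosen for the highest mean across the arrays. Bmi1 is a RING-finger subunit of Polycomb repressive complex 1 (PRC1), which places ubiquitin on histone H2A and keeps silenced genes compacted. In the nervous system it is known for keeping neural stem cells dividing, in part by repressing the Cdkn2a locus, and it often acts on chromatin that Polycomb repressive complex 2 (PRC2), with its methyltransferase Ezh2, has marked.

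The starting cells were neurosphere cells from the wall of the lateral ventricle of postnatal mice deficient in Trp53 (strain B6;129-Trp53tm1Brd), a deficiency that MYC and MYC+Bmi1 cultures share. The oncogenes were overexpressed in these cells, tumours grew from them in the brains of mice, and tumour cells that still carried the fluorescent transgene cassette were sorted and cultured again as neurospheres. The MYC cultures had received MYC and the MYC+Bmi1 cultures both genes. For comparison, 5 arrays labelled MYC+Ezh2, 5 labelled HRAS and 2 labelled HRAS+Bmi1 were read in the same way. Each array measured total RNA of 1 culture on the Affymetrix Mouse Gene 1.0 ST platform. Whether the arrays of a group stem from different tumours or mice is not in the labels, and the p-values cover only the spread among the arrays, which may be technical. Values are log2 expression levels, on which a difference of 1 is a doubling, and all tests are 2-sided limma tests adjusted by the Benjamini-Hochberg method over 19938 genes. A gene passed at an adjusted p under 0.05.

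Some arrays stood apart before any comparison was made. MYC 4 and MYC 5 read 10.55 and 10.83 for Neurod1, a proneural transcription factor, where the other MYC arrays lay between 3.39 and 3.85. They read 4.85 and 6.62 for the stem cell factor Sox2, against 10.74 to 11.58 in the other MYC arrays, and 5.02 and 5.17 for the oligodendrocyte lineage factor Olig2, against 9.49 to 10.57. MYC+Bmi1 1 read 7.87 for Neurod1 and 9.59 for Olig2, while MYC+Bmi1 2 and 3 read 3.49 and 3.37 for Neurod1 and 4.84 and 6.90 for Olig2. Over all genes the correlation of MYC+Bmi1 1 with the MYC arrays ran from 0.962 (MYC 4) to 0.984 (MYC 1), with a mean of 0.974, and it was 0.968 with MYC+Bmi1 2 and 0.973 with MYC+Bmi1 3. MYC+Bmi1 1 had 21 genes at least 1 log2 unit above the range of the MYC arrays and 10 genes that far below it. MYC+Bmi1 2 had 137 above and 97 below, and MYC+Bmi1 3 had 90 above and 85 below. In bulk RNA, fewer cells of a type and less RNA per cell cannot be told apart, and this holds for every lineage marker given here.

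The Bmi1 probe set did not separate the groups. It read 10.16, 10 and 10.22 in MYC+Bmi1 1, 2 and 3, against a lowest value of 9.58, a median of 9.92 and a highest of 10.07 in MYC. MYC+Bmi1 2 lay inside the MYC range and the other two just above it. The difference was 0.24 ± 0.190 (SE; limma adjusted p = 0.668). In HRAS+Bmi1 against HRAS it was 0.89 ± 0.225 (limma adjusted p = 0.0152), where Bmi1 read 10.70 and 10.06 against 9.07 to 10.23, so those groups overlapped too. The difference in MYC cells minus that in HRAS cells was -0.66 and did not pass (limma adjusted p = 0.253). The sources used here do not give which part of Bmi1 was added or which part the probe set reads, so the Bmi1 probe set is a limited check of the label. Myc read 6.30 to 6.68 in MYC+Bmi1 and 6.12 to 8.23 in MYC, and did not pass (-0.57 ± 0.395, limma adjusted p = 0.610). It read 10.44 to 12.85 in the arrays labelled HRAS, which name no added MYC. Which part of MYC was added or read is not given either, so these values need not be the level of the added gene. Ezh2 read 10.03 to 10.90 in MYC+Bmi1 and 9.98 to 10.87 in MYC (-0.14 ± 0.181, limma adjusted p = 0.815).

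The gene directly before Bmi1 on chromosome 2, on the same strand, did change. Commd3 encodes a COMM-domain protein. It read 6.51 in MYC+Bmi1 1, 9.51 in MYC+Bmi1 2 and 5.53 in MYC+Bmi1 3, against 9.12 to 9.70 (median 9.41) in MYC. MYC+Bmi1 1 and 3 lay more than 2 log2 units below every MYC array and MYC+Bmi1 2 lay among them. The fall was 2.22 ± 0.426 (SE; limma adjusted p = 0.0222), and it did not pass without MYC+Bmi1 1 or without MYC+Bmi1 3. The difference was -3.39 without MYC+Bmi1 2 and -1.40 without MYC+Bmi1 3. Commd3 read 8.93 to 9.47 in the 5 MYC+Ezh2 arrays and 9.13 and 9.48 in HRAS+Bmi1. None of 7 other measured neighbours of Bmi1 passed, from Skida1 to Armc3 (limma adjusted p = 0.331 to 0.979).

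The starts of Commd3 and Bmi1 lie 4583 bases apart in RefSeq. Their promoter windows, from 250 bases before to 50 after the start (RefSeq, build GRCm38.p6), are shown because Commd3 was low in 2 of 3 arrays and its neighbour Bmi1 is the added gene. Capitals mark every CG dinucleotide, the site of DNA methylation. The Commd3 window lies at chr2:18672185-18672484 and the Bmi1 window at chr2:18676768-18677067, both on the plus strand.
Commd3: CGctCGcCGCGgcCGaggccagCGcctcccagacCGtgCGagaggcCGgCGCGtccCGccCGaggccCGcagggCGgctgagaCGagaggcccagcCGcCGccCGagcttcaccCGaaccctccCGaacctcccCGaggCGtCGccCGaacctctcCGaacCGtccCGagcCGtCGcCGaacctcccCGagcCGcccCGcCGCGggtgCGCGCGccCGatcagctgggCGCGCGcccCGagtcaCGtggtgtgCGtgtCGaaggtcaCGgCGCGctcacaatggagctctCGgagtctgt
Bmi1: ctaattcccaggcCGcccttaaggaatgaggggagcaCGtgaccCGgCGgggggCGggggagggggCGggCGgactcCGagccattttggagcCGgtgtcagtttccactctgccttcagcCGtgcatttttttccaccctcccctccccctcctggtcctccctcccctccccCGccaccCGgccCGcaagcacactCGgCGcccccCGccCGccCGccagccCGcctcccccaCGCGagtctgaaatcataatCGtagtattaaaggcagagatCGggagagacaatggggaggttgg
The Commd3 window held 51 CG dinucleotides at 76.0% GC, and the Bmi1 window 23 at 66.3% GC. The ratio of observed CG to that given by the base composition was 1.20 for Commd3 and 0.71 for Bmi1, beside a median of 0.62 over the 15614 tested genes with a window in the table. Both windows held the palindrome CACGTG, the letters of the E-box that MYC-MAX dimers bind, as did 8.38% of all windows.

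**Figure D1:**
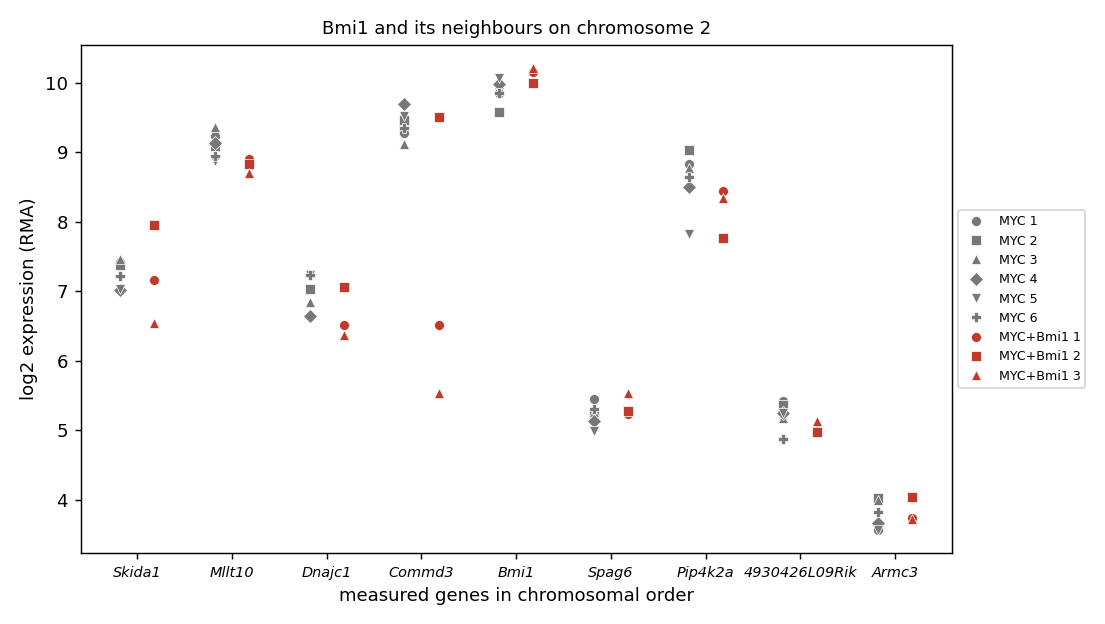
The plot gives the log2 expression level (vertical axis) of Bmi1 and its measured neighbours in chromosomal order (horizontal axis), with 1 marker per array, grey for the 6 MYC and red for the 3 MYC+Bmi1 arrays. Commd3 is at 6.51 and 5.53 in MYC+Bmi1 1 and 3 and at 9.51 in MYC+Bmi1 2, while Bmi1 lies between 9.58 and 10.22 in all 9.

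In MYC+Bmi1 against MYC, 30 genes passed, 20 of them higher and 10 lower. That is 0.150% of the genes tested, 0.100% higher and 0.0502% lower, while 2315 genes (11.6%) had an unadjusted p under 0.05. The passed differences ran in size from 0.49 to 3.07. The largest rises were those of Gad2, Pnoc and Lamb1, which encode an enzyme of GABA synthesis, a neuropeptide precursor and a laminin chain. The largest falls were those of the transcription factor gene Zfp521, the procollagen processing gene Pcolce2 and the teneurin gene Tenm3. The genes are ordered by their known roles, and no enrichment of a role was tested. In 23 of the 30 the MYC+Bmi1 and MYC arrays did not overlap, 15 lying above and 8 below, as did 815 of all genes (4.09%; 2.80% above and 1.29% below). The number passing depended on the arrays and on how the spread was estimated. It was 234 without MYC+Bmi1 1, 9 without MYC+Bmi1 3, 17 without MYC 1, 51 without MYC 4, 84 without MYC 6, and 1 (Tenm3) when the spread came from the MYC and MYC+Bmi1 arrays alone.

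**Figure D2:**
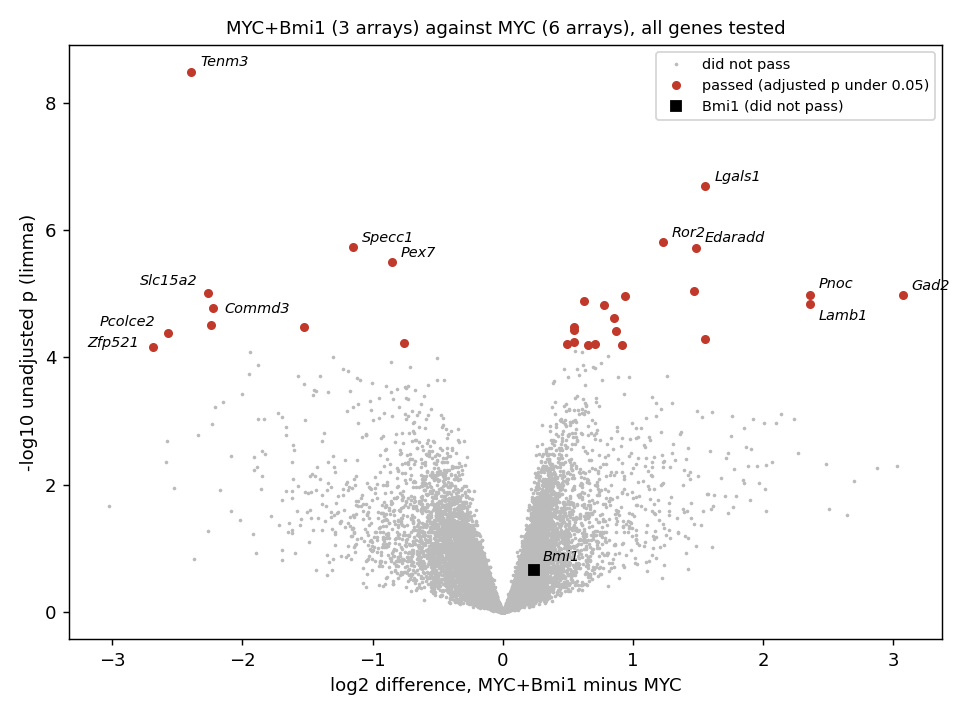
Each point is a gene, with the log2 difference of MYC+Bmi1 minus MYC on the horizontal axis and -log10 of the unadjusted limma p on the vertical axis; red points are the 30 genes that passed and the black square is Bmi1. Tenm3 stands highest, at -2.39, and Bmi1 lies near the base at 0.24.

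The largest rise was that of Gad2, which encodes a glutamate decarboxylase that makes the inhibitory transmitter GABA. Gad2 read 7.54, 9.69 and 8.04 in MYC+Bmi1 1, 2 and 3, against 4.52 to 7.76 (median 4.79) in MYC. MYC 6 alone lay inside the MYC+Bmi1 range, and the other 5 MYC arrays were at 5.56 or below. The rise was 3.07 ± 0.570 (SE; limma adjusted p = 0.0196). Pnoc, which encodes the precursor of the neuropeptide nociceptin, read 6.17, 10.02 and 8.48 against 5.28 to 6.92 (median 5.76). It rose by 2.36 ± 0.437 (limma adjusted p = 0.0196), with MYC+Bmi1 1 inside the MYC range. Without MYC+Bmi1 2 the difference in Pnoc was 1.46 and did not pass.

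Of other genes known from neurons, several rose by less. Plppr4, a phospholipid phosphatase-related membrane protein of synapses, read 6.18, 7.73 and 7.15 against 4.99 to 6.20 (median 5.5) and rose by 1.47 ± 0.270 (limma adjusted p = 0.0196). MYC+Bmi1 1 lay just under MYC 6. Shank1, a scaffold of the postsynaptic density, rose by 0.55 (5.74 to 6.00 against 5.20 to 5.5), and Nova2, a splicing regulator of neurons, by 0.55 (6.74 to 6.99 against 6.17 to 6.59). Srcin1, an adaptor that restrains Src kinase, rose by 0.49 (6.53 to 6.73 against 5.91 to 6.34). The arrays of these 3 genes did not overlap. For Flrt1, an adhesion protein with leucine-rich repeats, they did, at 6.49 to 7.28 against 5.76 to 6.50, and it rose by 0.87 ± 0.178 (limma adjusted p = 0.0369).

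Several genes that rose encode proteins of the matrix or the cell surface, as do Pcolce2 and Tenm3, which fell. Lamb1, the laminin beta-1 chain of basement membranes, read 9.04, 9.94 and 10.55 against 5.98 to 8.52 (median 7.53). All 3 MYC+Bmi1 arrays were above all MYC arrays, and the rise was 2.36 ± 0.447 (limma adjusted p = 0.0212). Lgals1, which encodes the galactoside-binding lectin galectin-1, read 11.16, 10.52 and 11.10 against 8.28 to 9.88 (median 9.46). Its arrays were also fully apart, and it rose by 1.56 ± 0.226 (limma adjusted p = 0.00205). Ror2, a receptor tyrosine kinase that binds Wnt5a, read 7.58, 8.41 and 8.12 against 6.14 to 7.16 (median 6.86). It rose by 1.23 ± 0.201 (limma adjusted p = 0.00752) with no overlap. Mdk, the secreted heparin-binding growth factor midkine, rose by 0.78 ± 0.148 (6.22, 6.98 and 6.25 against 5.54 to 5.89; limma adjusted p = 0.0212), and Gja5, a gap junction protein, by 0.66.

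Of 25 measured genes in the list of WNT signalling and 21 in the list of mesenchymal and matrix genes, none passed. The median differences of these lists were 0.22 and 0.12, beside 0.02 over all genes. Lamb1, Lgals1 and Ror2 are in neither list.

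2 genes known from epithelial development rose. Edaradd, the death-domain adaptor of the ectodysplasin receptor, read 5.75, 6.80 and 7.72 against 5.11 to 5.56 (median 5.22). All 3 arrays exceeded MYC, MYC+Bmi1 1 by the least, and the rise was 1.48 ± 0.245 (limma adjusted p = 0.00752). Grhl3, a grainyhead-like transcription factor of the epidermis, read 5.68, 8.38 and 7.75 against 5.56 to 5.89. It rose by 1.55 ± 0.324 (limma adjusted p = 0.0441) through MYC+Bmi1 2 and 3, while MYC+Bmi1 1 was level with MYC. The Grhl3 difference was 2.35 without MYC+Bmi1 1 and 1.00 without MYC+Bmi1 2, and the latter did not pass.

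The remaining rises were of mixed function and did not overlap between the groups. Sobp, a nuclear zinc finger protein, rose by 0.94, and the ubiquitin ligase gene Sh3rf3 by 0.92. Sem1, a small proteasome subunit, rose by 0.86, and Cox6a1, a subunit of cytochrome c oxidase, by 0.71. Ikzf4, an Ikaros family transcription factor, rose by 0.62 and the carboxypeptidase gene Cpa5 by 0.55. Their limma adjusted p lay between 0.0196 and 0.0441. Cpa5 stood at 3.73 to 4.71 in all 9 arrays, near the low end of the scale. A filter on low values kept genes above the median of all values in at least 3 arrays. It left out Cpa5, Ikzf4, Gja5, Shank1 and Mdk.

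Among the falls, Tenm3 had the smallest p of all genes. It encodes a teneurin, a transmembrane protein that guides axons and matches synaptic partners. Tenm3 read 7.18, 6.82 and 6.35 in MYC+Bmi1 1, 2 and 3, against 8.65 to 9.36 (median 9.24) in MYC. Every MYC+Bmi1 array was more than 1 log2 unit below every MYC array. The fall was 2.39 ± 0.279 (SE; limma adjusted p = 6.52e-05), and the difference ranged from -2.59 to -2.18 as each of the 9 arrays was left out in turn, passing each time.

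The promoter windows of Tenm3 and Gad2 are shown next, as those of the fall with the smallest p and of the largest rise. Both come from RefSeq (GRCm38.p6), Tenm3 at chr8:48674641-48674940 on the minus strand and Gad2 at chr2:22622077-22622376 on the plus strand. Capitals mark CG dinucleotides.
Tenm3: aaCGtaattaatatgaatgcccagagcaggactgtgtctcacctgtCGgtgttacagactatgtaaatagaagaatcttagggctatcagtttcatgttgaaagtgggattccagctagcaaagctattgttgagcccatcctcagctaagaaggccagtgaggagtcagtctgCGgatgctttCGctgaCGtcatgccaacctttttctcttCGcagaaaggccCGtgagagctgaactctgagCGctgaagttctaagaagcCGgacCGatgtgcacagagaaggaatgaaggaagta
Gad2: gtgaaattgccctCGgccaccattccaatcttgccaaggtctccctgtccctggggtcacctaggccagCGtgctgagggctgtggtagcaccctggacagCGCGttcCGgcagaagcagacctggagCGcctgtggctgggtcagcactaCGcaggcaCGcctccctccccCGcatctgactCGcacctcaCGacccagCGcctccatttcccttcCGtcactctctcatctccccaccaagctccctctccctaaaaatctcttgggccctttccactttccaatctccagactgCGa
Tenm3 had 10 CG dinucleotides at 47.3% GC and Gad2 14 at 61.3% GC, both far fewer than the 51 of Commd3. Windows were found for 21 of the 30 genes that passed. Their median GC content was 61.3% for the 13 genes that rose and 60.5% for the 8 that fell, beside 57.7% over all tested genes with a window. The ratio of observed to given CG had a median of 0.615 for the rises, 0.72 for the falls and 0.62 over all. CACGTG, searched on both strands, was in 1 of the 21 windows (4.76%), that of Commd3. No binding or methylation was measured, so these letters only describe the windows.

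3 further genes fell by more than 2 log2 units with no overlap. Zfp521, a zinc finger transcription factor that promotes neural fate, read 6.70, 4.32 and 5.72 against 7.64 to 8.79 (median 8.32) and fell by 2.69 ± 0.573 (limma adjusted p = 0.0456). Pcolce2, an enhancer of procollagen processing, read 6.01, 4.99 and 6.22 against 6.92 to 9.52 (median 8.31) and fell by 2.57 ± 0.526 (limma adjusted p = 0.0373). Slc15a2, a proton-coupled peptide transporter of the brain, read 5.37, 4.93 and 4.08 against 6.19 to 8.85 (median 6.70) and fell by 2.26 ± 0.417 (limma adjusted p = 0.0196). In each of these genes the highest MYC+Bmi1 array lay below the lowest MYC array by less than 1 log2 unit.

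Besides Commd3, 2 further falls changed by over 1.5 times when a single array was left out. Gng12, a gamma subunit of heterotrimeric G proteins, read 10.11 in MYC+Bmi1 1, 6.27 in MYC+Bmi1 2 and 7.69 in MYC+Bmi1 3, against 9.83 to 10.77 in MYC. It fell by 2.24 ± 0.448 (limma adjusted p = 0.0356), and without MYC+Bmi1 2 the difference was -1.36 and did not pass. Ptbp3, an RNA-binding protein of the polypyrimidine tract family, read 8.05, 8.14 and 6.48 against 8.60 to 9.87. It fell by 1.53 ± 0.307 (limma adjusted p = 0.0356), and without MYC+Bmi1 3 the difference was -0.99 and did not pass.

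The other falls were smaller. Specc1, a cytospin that binds the cytoskeleton, read 6.71, 5.94 and 6.03 against 6.78 to 7.79 and fell by 1.15 ± 0.190 (limma adjusted p = 0.00752). Pex7, the receptor that imports a class of enzymes into peroxisomes, read 6.94, 6.99 and 7.07 against 7.54 to 7.99 and fell by 0.85 ± 0.146 (limma adjusted p = 0.0106). Trmu, which modifies mitochondrial tRNA, read 6.99, 6.67 and 6.67 against 7.31 to 7.61 and fell by 0.76 ± 0.159 (limma adjusted p = 0.0441). None of these overlapped.

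**Figure D3:**
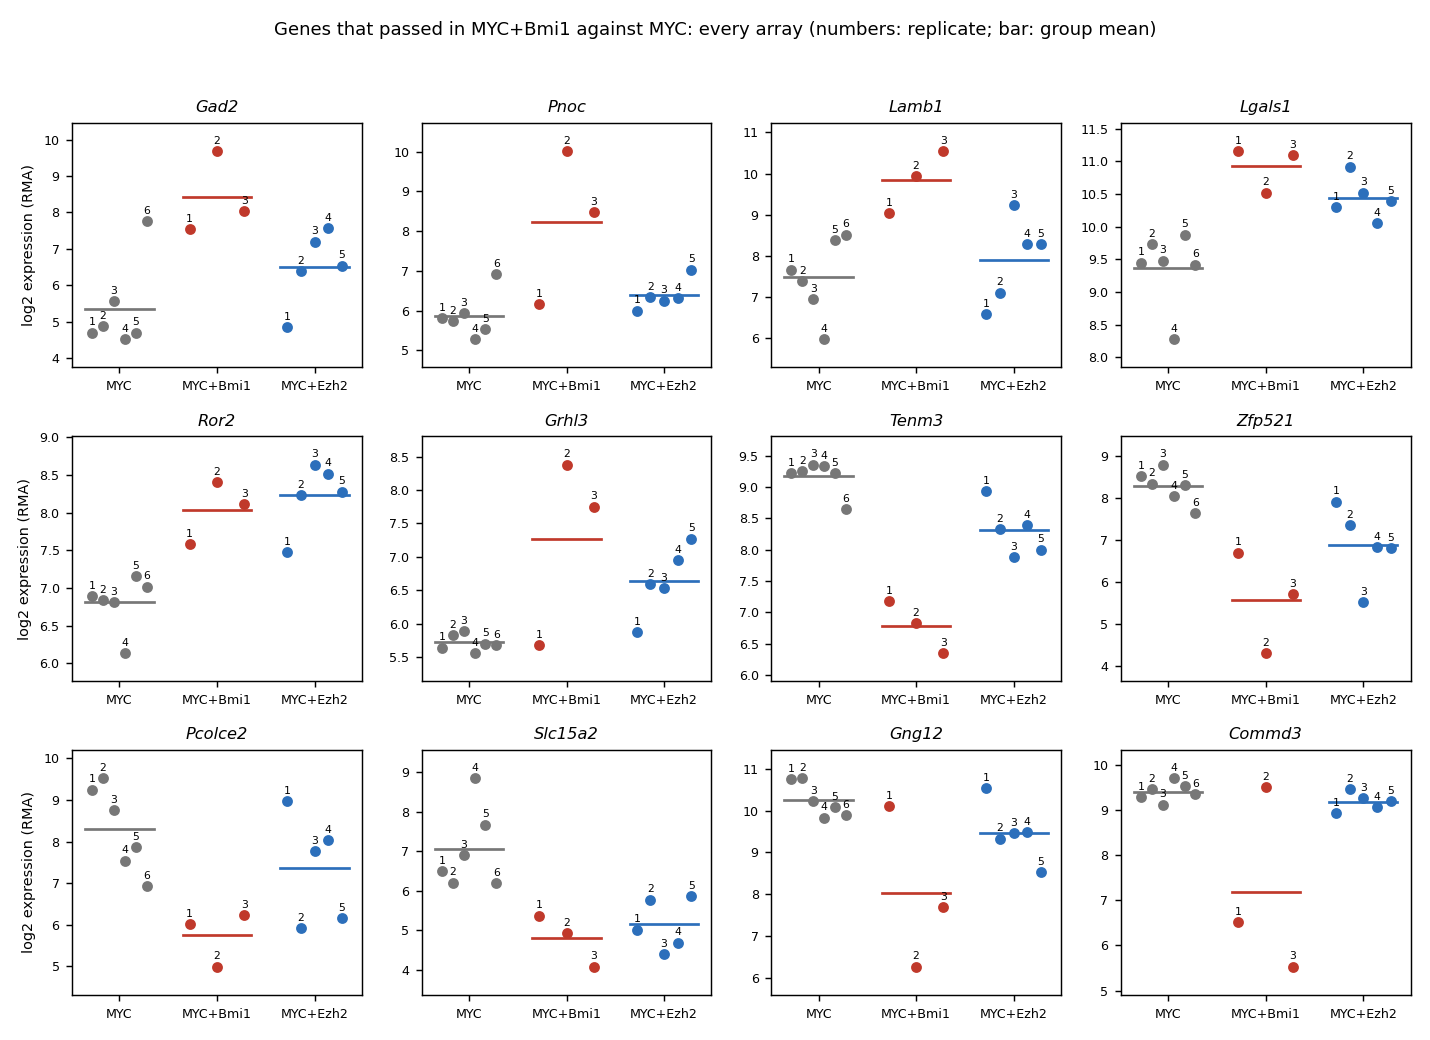
The panels give the log2 expression level of 12 genes that passed, with 1 point per array numbered by replicate and a bar at the group mean, for MYC (grey), MYC+Bmi1 (red) and MYC+Ezh2 (blue). Tenm3 at 6.35 to 7.18 in MYC+Bmi1 is clear of MYC at 8.65 to 9.36. In contrast, Gad2, Gng12, Commd3, Grhl3 and Pnoc each have 1 MYC+Bmi1 array within the MYC range.

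The 30 genes differed in how far they rested on single arrays. All 30 kept their sign as each of the 9 arrays was left out in turn, but only Tenm3, Lgals1 and Pex7 passed every time. Of the 30, 4 still passed without MYC+Bmi1 3, 11 without MYC+Bmi1 2 and 27 without MYC+Bmi1 1. The passed genes lay on 17 chromosomes, with at most 4 on any one (chromosome 10), and the chromosome whose genes had the median difference farthest from 0 was chromosome 14, at 0.09.

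Of 20 measured PRC1 subunits, Bmi1 included, none passed, and 8 had a higher and 12 a lower mean in MYC+Bmi1. Their median difference was -0.08, beside 0.02 over all genes. Pcgf5, a paralogue of Bmi1 in variant PRC1, had the widest spread, at 7.65, 4.82 and 7.04 against 6.80 to 8.39 (-1.15 ± 0.401, limma adjusted p = 0.246). Pcgf1, another paralogue, lay at 7.22, 7.35 and 7.01, below every MYC array (7.53 to 8.36; limma adjusted p = 0.207). None of 11 measured PRC2 subunits passed, with a median difference of -0.05.

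Lists of genes that Polycomb complexes are known to silence had small median differences. None of 37 measured Hox genes passed, and 31 of them had a higher mean in MYC+Bmi1, with a median difference of 0.11. Over all genes, 53.11% had a higher mean. Of 47 measured developmental transcription factors bound by Polycomb, none passed and 32 had a higher mean, with a median difference of 0.10. Their median levels of 5.08 to 5.74 in MYC+Bmi1 and 4.95 to 5.69 in MYC were below the 6.23 to 6.43 of all genes, and RMA draws low values towards a common floor.

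Among 6 measured inhibitors of cyclin-dependent kinases none passed. Cdkn2a, the locus that Bmi1 is best known to repress, read 9.15, 9.14 and 9.34 against 8.44 to 9.23, a difference of 0.24 ± 0.179 (limma adjusted p = 0.642). The groups overlapped. Cdkn2c, which encodes the CDK4 and CDK6 inhibitor p18, read 5.19, 5.45 and 4.63 against 5.66 to 8.53 (median 7.26). All 3 MYC+Bmi1 arrays were below all MYC arrays, and the difference of -1.94 ± 0.419 lay just outside the threshold (limma adjusted p = 0.0503). Without MYC 4 and 5, the MYC arrays with the lowest Cdkn2c, it fell by 2.60 (limma adjusted p = 6.12e-05). Leaving out the MYC arrays nearest to MYC+Bmi1 widens the difference by construction, so that value is a description only. Lists of cell cycle genes (23 measured, median difference 0.10), MYC targets (26, -0.11) and p53 targets (16, -0.04) had no member that passed.

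The Dlx interneuron list holds homeobox factors and enzymes of GABAergic neurons. Of 12 measured genes 1 passed, Gad2, where 0.150% of all genes passed, and 11 had a higher mean in MYC+Bmi1. The median difference of the list was 1.26, beside 1.35 in MYC+Ezh2 against the same MYC arrays. The arrays were uneven. Relative to the MYC mean, the list's median was 0.25 in MYC+Bmi1 1, 2.61 in MYC+Bmi1 2 and 1.47 in MYC+Bmi1 3, while the MYC arrays ran from -0.74 to 1.45, MYC 6 being the highest. Dlx5, a homeobox factor of these neurons, read 7.82, 11.60 and 11.65 against 5.61 to 10.18 and did not pass (2.87 ± 0.949, limma adjusted p = 0.221). Slc32a1, the vesicular GABA transporter, read 6.74, 9.86 and 8.82 against 5.64 to 7.90 (2.00 ± 0.548, limma adjusted p = 0.126). Both genes were within the MYC range in MYC+Bmi1 1 and above it in MYC+Bmi1 2 and 3.

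No member of the glial lists passed, and the MYC+Bmi1 arrays lay within the MYC range for both. The oligodendrocyte list stood at 0.40, -1.41 and -0.94 relative to the MYC mean, against -1.64 to 1.24 in the MYC arrays, and the astrocyte list at -0.38, -0.78 and -0.56 against -0.96 to 1.15. Of 17 measured oligodendrocyte lineage genes 15 had a lower mean, with a median difference of -0.67, and of 16 astrocyte genes 13 did, with a median of -0.63. The oligodendrocyte list again set MYC+Bmi1 1 apart. Olig1, a transcription factor of that lineage, read 9.90, 5.79 and 6.52 in the 3 arrays, and Pdgfra, the receptor of oligodendrocyte precursors, 9.79, 6.04 and 8.47. The MYC arrays spanned 5.11 to 10.78 for Olig1 and 5.51 to 10.76 for Pdgfra, with MYC 4 and 5 lowest for both. For neural stem and radial glia genes (21 measured) the median difference was -0.14, and for neuronal cytoskeleton and synapse genes (26 measured) it was 0.27, with none passing.

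**Figure D4:**
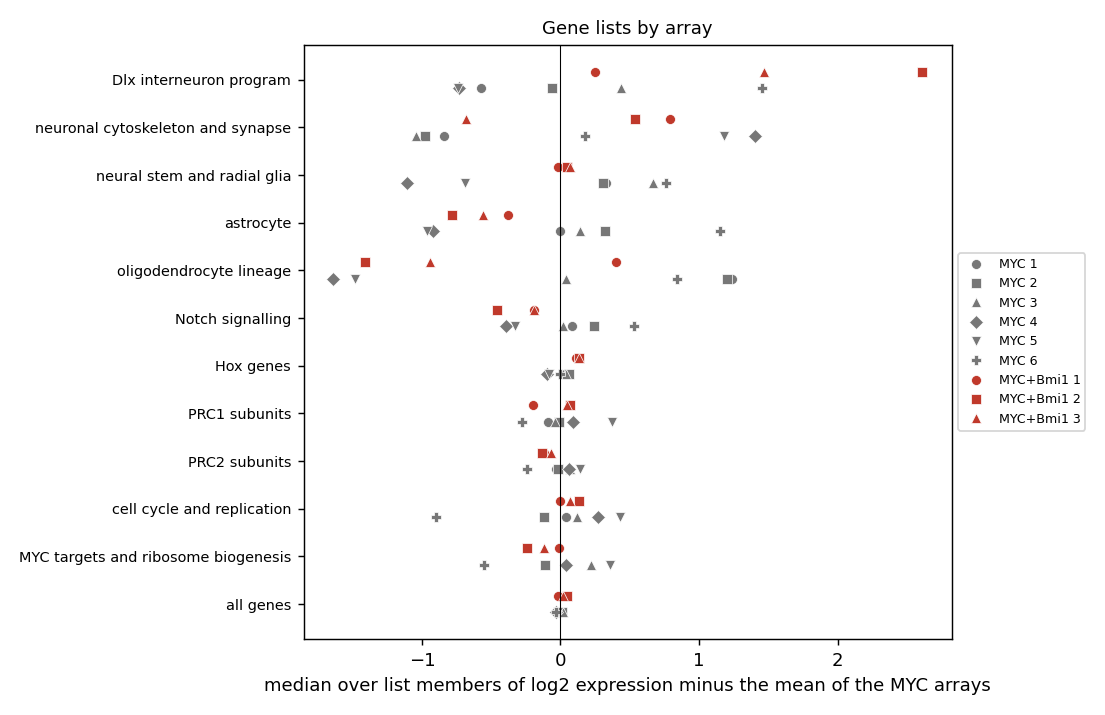
Each row is a gene list and each marker an array, placed at the median over the list's genes of the log2 level minus the mean of the MYC arrays (horizontal axis); grey markers are MYC arrays and red ones MYC+Bmi1 arrays. In the Dlx interneuron list MYC+Bmi1 2, at 2.61, is clear of the MYC arrays. MYC+Bmi1 3, at 1.47, is level with MYC 6 at 1.45, and MYC+Bmi1 1, at 0.25, is among the MYC arrays.

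Markers of host cells that the sort should remove were low in both groups, as were those of smooth muscle and epithelium, which are not counted as host cells. None of the 16 microglial, 16 endothelial and pericyte, 12 ependymal, 8 choroid plexus or 18 smooth muscle and epithelial markers measured passed. The median levels of these lists ran from 4.50 to 5.74 in MYC+Bmi1 and from 4.60 to 5.63 in MYC. The smooth muscle and epithelial list had a median difference of 0.21 and the choroid plexus list of 0.13. An exception in level was Otx2, a transcription factor of the choroid plexus and of midbrain, which read 6.82 to 8.93 in MYC 1, 2 and 3 and 4.78 to 5.42 in MYC+Bmi1 and did not pass (limma adjusted p = 0.520). The Y-linked gene Eif2s3y read 7.21, 8.69 and 8.10 in MYC+Bmi1 and 3.81 to 8.57 in MYC, lowest in MYC 5 and 6, and Xist, of the inactive X chromosome, read 6.82, 4.30 and 3.96 against 3.79 to 11.05. Neither passed, and the part of such differences in the results was not tested.

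Because MYC 4 and 5 stood apart in Neurod1, Sox2 and Olig2, the comparison was also made with the other 4 MYC arrays. Then 245 genes passed (1.23% of those tested), 99 higher (0.497%) and 146 lower (0.732%), and 29 of the 30 genes were among them. Cox6a1 was the exception (0.54, limma adjusted p = 0.05). These 2 arrays were set aside for low Olig2 and Sox2 and high Neurod1. They were also the lowest MYC arrays for the oligodendrocyte (-1.64 and -1.48) and stem cell (-1.11 and -0.69) lists, the lowest for the astrocyte list (-0.92 and -0.96) and the highest for the neuronal list (1.4 and 1.18), as medians relative to the MYC mean. Leaving them out therefore moves the MYC mean of these lists by construction, and the counts that follow are a description. MYC+Bmi1 1, with Neurod1 at 7.87, was kept. In this reduced comparison 4 of the 17 oligodendrocyte genes fell (Cnp, Gpr17, Enpp6 and Sox8) and 4 of the 16 astrocyte genes (S100b, Aldoc, Apoe and Sox9), with median differences of -1.74 and -0.99. Of 18 Notch pathway genes 5 fell, namely the ligand genes Dll1 and Dll3, the target Hes5, the glycosyltransferase gene Lfng and the coactivator gene Maml2. Of 21 stem cell and radial glia genes 3 fell (Hes5, Sox9 and Gli3), and of 26 neuronal genes 3 rose (Ina, Celf4 and Stx1a). The median difference was -0.46 for the stem cell list, 0.87 for the neuronal list and 0.85 for the Dlx interneuron list.

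Single genes are given as examples of the values in these 2 arrays. Ednrb, the endothelin receptor of glia and neural crest, read 6.99, 4.73 and 5.73 in MYC+Bmi1, against 9.60 to 10.23 in MYC 1, 2, 3 and 6 and 4.78 and 5.01 in MYC 4 and 5. Its difference was -2.52 with all MYC arrays (limma adjusted p = 0.272) and -4.25 without MYC 4 and 5 (limma adjusted p = 6.12e-05). Dll1 read 7.73, 7.08 and 7.04, against 9.0 to 9.92 in the 4 arrays and 7.88 and 8.14 in MYC 4 and 5. Dlk1, an imprinted gene for a Notch-like membrane protein, read 9.19, 10.40 and 9.89, against 6.78 to 7.29 in 5 MYC arrays and 10.38 in MYC 5. It differed by 2.24 with all arrays (limma adjusted p = 0.123) and rose by 2.86 without MYC 4 and 5 (limma adjusted p = 0.00295). Ednrb and Dlk1 were picked out after their values were seen, from genes that passed only without MYC 4 and 5. The change in their adjusted p therefore follows from the choice. Dll1 was named because it passed in the reduced comparison.

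MYC+Bmi1 was next set directly against MYC+Ezh2, where a PRC2 rather than a PRC1 subunit had been added. A single gene passed (0.00502%), Ezh2 itself, at 10.03 to 10.90 in MYC+Bmi1 and 12.02 to 12.31 in MYC+Ezh2 (-1.79 ± 0.187, limma adjusted p = 7.42e-06). An unadjusted p under 0.05 was reached by 831 genes (4.17%). Tenm3 was lower in MYC+Bmi1 than in any of the 5 MYC+Ezh2 arrays (7.88 to 8.94), with a difference of -1.52 that did not pass (limma adjusted p = 0.0918). The number passing rose to 11 without MYC+Bmi1 1, 7 without MYC+Bmi1 2, 3 without MYC+Bmi1 3, 3 without MYC 4 and 2 without MYC 5.

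MYC+Ezh2 against MYC uses the same MYC arrays, so its values can only be set beside those of MYC+Bmi1. In that comparison 0.246% of genes passed. Ror2 differed by 1.23 in MYC+Bmi1 and 1.42 in MYC+Ezh2 (limma adjusted p = 7.04e-05), where its arrays read 7.48 to 8.64. Lgals1 differed by 1.56 and 1.06 (limma adjusted p = 0.0225), and Slc15a2 by -2.26 and -1.91 (limma adjusted p = 0.0264). Sem1 differed by 0.86 and 0.70, and Srcin1 by 0.49 and 0.43 (limma adjusted p = 0.0341 for each in MYC+Ezh2). Lamb1 differed by 2.36 and 0.42, Gad2 by 3.07 and 1.15, Commd3 by -2.22 and -0.22 and Ptbp3 by -1.53 and -0.09, and none of these 4 passed in MYC+Ezh2. Whether the additions differ in these genes was tested by the direct contrast, which none of them passed (limma adjusted p = 0.292 to 0.9997). With 3 against 5 arrays, that result does not show that the additions act alike. In that contrast, MYC+Bmi1 minus MYC+Ezh2, Lamb1 differed by 1.94, Gad2 by 1.92, Commd3 by -1.9997 and Ptbp3 by -1.43. Lgals1 differed by 0.49, Ror2 by -0.19, Slc15a2 by -0.35, Sem1 by 0.16 and Srcin1 by 0.06.

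Bmi1 had also been added to HRAS cells, which share no arrays with the MYC comparison. The difference between both additions was tested as an interaction, and 485 genes passed (2.43%), 219 with a higher (1.10%) and 266 with a lower (1.33%) difference in MYC cells. The number was 202 without MYC+Bmi1 3 and 736 without MYC 6. 2 of the widest of these came mainly from the HRAS side. Pi15, a secreted peptidase inhibitor, differed by 0.07 in MYC+Bmi1 and by -5.01 in HRAS+Bmi1. The calcium-binding protein gene Calb1 differed by 0.30 and 5.79.

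Of the 30 genes that passed in MYC+Bmi1 against MYC, 7 also passed the interaction. The 30 were chosen by a difference that is itself part of the interaction, so nothing is read from this count beside the 2.43% of all genes. Gad2 was the widest, at 3.07 in MYC and -1.49 in HRAS cells, where it read 4.60 and 4.62 with Bmi1 and 5.20 to 7.27 without (interaction 4.56, limma adjusted p = 0.0045). Tenm3 differed by -2.39 in MYC and 0.72 in HRAS cells, where it read 10.80 and 10.98 with Bmi1 and 9.36 to 10.74 without (interaction -3.12, limma adjusted p = 9.91e-05). Slc15a2 differed by -2.26 and 0.69, and Trmu by -0.76 and 0.48. Lamb1 differed by 2.36 and -0.34 and was already high in HRAS cells, at 11.48 to 12.25 without Bmi1. Lgals1 differed by 1.56 and 0.16 and was likewise high in HRAS, at 12.98 to 13.52. Edaradd differed by 1.48 and -0.10.

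In HRAS+Bmi1 against HRAS 5.91% of genes passed (2.87% higher and 3.04% lower), and 1 of the 30 did, Mdk. It read 6.51 and 6.24 with Bmi1 and 5.28 to 5.97 without (0.69, limma adjusted p = 0.0168), beside 0.78 in MYC cells. Mdk is among the genes that the filter on low values left out. The difference had the same sign on both backgrounds in 22 of the 30 and the opposite sign in 8. The share with the same sign over all genes was not computed, so nothing is read from this count. Cdkn2c differed by -1.94 in MYC and 0.51 in HRAS cells, and the interaction passed (-2.45, limma adjusted p = 0.0403).

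**Figure D5:**
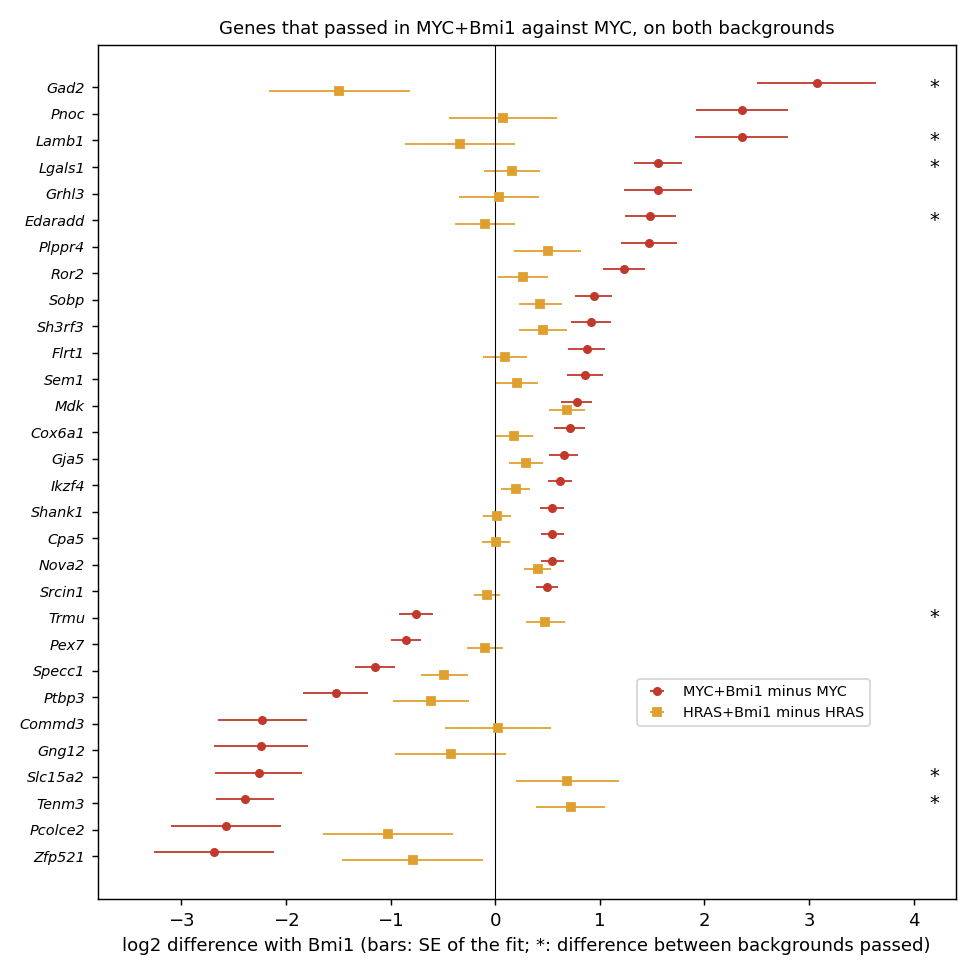
For each of the 30 genes (rows) the plot gives the log2 difference of MYC+Bmi1 minus MYC (red circles) and of HRAS+Bmi1 minus HRAS (orange squares), with bars for the standard error of the fit and an asterisk where the interaction passed. Gad2 is at 3.07 and -1.49 and Tenm3 at -2.39 and 0.72, while Mdk is at 0.78 and 0.69.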

How the data were processed

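Log2 expression values were made by the authors with RMA (Affymetrix Expression Console 1.0, as the submitters' processing notes list), and the deposited scale was read from the values (1.44 to 14.5, array medians 5.59 to 5.79). RMA equalises array distributions, so a change in total RNA is not seen. Depth has no meaning here, and the number of arrays limits precision. Of 35557 probe sets, 21789 had 1 symbol in the platform annotation, 1621 several and 12147 were not listed. 999 genes had more than 1, and the highest mean over all arrays was kept, leaving 19938 genes. limma 3.58.1 (R 4.3.3) fitted 8 group means to 32 arrays, with eBayes, after tests on simulated data. Groups came from titles. Named genes were the added oncogenes, all that passed, leading interaction genes, list members that passed and the first of each list; others are said to be chosen after their values were seen. The members and the gene lists were chosen with earlier results of these data known. No duplicate arrays were found (highest r = 0.991). Gene order, chromosomes and promoters are from RefSeq GRCm38.p6, where 99.9% of symbols were found.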

Additional observations from a re-analysis of the deposited data

Results flagged for a closer look

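In 7 of 33 genes tested, 1 MYC array lay far from the other 5, where chance gives about 1 gene in 20. MYC 6 was high in Gad2 (7.76) and low in Gja5 (4.34), Trmu (7.31) and Tenm3 (8.65). MYC 4 was low in Lgals1 (8.28) and Ror2 (6.14), and MYC 2 was high in Sh3rf3 (6.58). Of these values, that of Gad2 alone reached the MYC+Bmi1 range.

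The difference made with Bmi1 was unlike on the MYC and HRAS backgrounds by the limma interaction test in 7 of the 30 genes, against 2.43% of all genes. The difference that chose the 30 is itself part of the interaction, so the count is a description. The interaction was 4.56 for Gad2, 2.69 for Lamb1 (adjusted p = 0.0341), 1.39 for Lgals1 (adjusted p = 0.0306) and 1.58 for Edaradd (adjusted p = 0.0241). It was -1.24 for Trmu (adjusted p = 0.00623), -2.95 for Slc15a2 (adjusted p = 0.0128) and -3.12 for Tenm3.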

How the results depend on the processing

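Counts are given for MYC+Bmi1 against MYC, against MYC+Ezh2 and the interaction (30, 1 and 485 in the report). They were 1, 3 and 135 when only the groups compared were fitted, and 2 for the first when the groups carrying MYC alone, with Ezh2 or with Bmi1 were. Without MYC 4 and 5 they were 245, 5 and 745, and with array weights 61, 2 and 1711. Requiring a log2 difference of at least 1 left 16 for the first. Without MYC 4, MYC 5 and MYC+Bmi1 1, a setting chosen after seeing the data, they were 627, 22 and 982. Leaving out 1 MYC or MYC+Bmi1 array at a time gave 9 to 234, 1 to 11 and 202 to 736. No MYC+Ezh2, HRAS or HRAS+Bmi1 array was left out, so the dependence of the last 2 counts on those arrays was not tested. The filter on low values (26), the mean of probe sets (35), eBayes with trend and robust settings (25) and median centring (22) kept the first count within 1.5 times. Under that filter 25 of the 30 genes had a value, and 24 still passed. Deviations of same-numbered arrays of MYC and MYC+Bmi1 correlated at r = 0.227, -0.236 and 0.036. The labels name no pairing, and these values cannot show whether the numbers pair the arrays. With the replicate number as a block the counts were 20, 1 and 509, and 17 of the 30 genes still passed. The signs of all 30 held in every setting that gave a value. The Ezh2 difference, which never passed, ran from -0.405 to 0.0277 as 1 array was left out, turning positive without MYC+Bmi1 3, and was 0.0507 without MYC 4, MYC 5 and MYC+Bmi1 1. Counts of passing list members changed in 51 of 665 list and setting pairs. The cause of these changes was not tested, beyond fewer arrays in the fit.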

Other observations

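The genes named next were among those with the widest range in the 3 MYC+Bmi1 arrays. They were picked after their values were seen, so a wide range follows from the choice. Over all genes the median standard deviation per gene was 0.2 in MYC+Bmi1 and 0.242 in MYC. Calb2, the calcium-binding protein calretinin of interneurons, read 5.06, 12.25 and 8.68 in MYC+Bmi1 1, 2 and 3, against 5.06 to 11.18 in MYC. Ibsp, the matrix protein bone sialoprotein, read 4.41, 10.84 and 10.41, against 4.43 to 10.35. Crabp2, a retinoic acid-binding protein, read 6.97, 12.12 and 11.07, against 6.20 to 8.57. Fabp7, the fatty acid-binding protein of radial glia, read 9.94, 4.21 and 6.99, against 4.54 to 12.23. MYC+Bmi1 3 alone was low in the neuronal membrane protein gene Gpm6a (11.81, 10.85 and 5.80, against 10.01 to 12.05 in MYC). The tubulin regulator gene Stmn2 read 9.36, 9.12 and 4.36. It read 9.25 and 9.23 in MYC 4 and 5 and 4.14 to 5.75 in the other MYC arrays. Armcx3, of mitochondrial transport, read 4.47, 9.86 and 5.04, against 7.39 to 10.14 in MYC. MYC+Bmi1 1 and 3 were thus the low arrays for Armcx3, and MYC+Bmi1 2 lay within the MYC range. None of these 7 genes passed in MYC+Bmi1 against MYC.

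Subunits of oxidative phosphorylation, a list chosen after the rise of Cox6a1 was seen, had a higher mean in MYC+Bmi1 for 65 of 80 genes, with a median difference of 0.14, and Cox6a1 alone passed. Cytosolic ribosomal protein genes had a higher mean for 42 of 55, with a median of 0.09 and none passing. Over all genes 53.11% had a higher mean, with a median difference of 0.02. Relative to the MYC mean, the oxidative phosphorylation list stood at 0.17, 0.05 and 0.27 in MYC+Bmi1 1, 2 and 3, against -0.12 to 0.12 in MYC. The ribosomal list stood at 0.13, 0.12 and 0.13, against -0.15 to 0.11.

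Of 13768 probe sets without a single gene symbol, none passed in the limma test of MYC+Bmi1 against MYC, and 1269 had an unadjusted p under 0.05.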
